A study of Mus musculus with 5 samples.

Results

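Single cells of untreated 11-day mouse salivary gland organoids (mSGOs) were examined for a myoepithelial-like group. The group was chosen by the summed share of a cell's unique molecular identifiers (UMIs, 1 per captured RNA molecule) that fell on 6 genes, Acta2, Cnn1, Myh11, Mylk, Csrp1 and Sparc. The library held 14266 cell barcodes, of which 9367 had at least 2000 UMIs and a mitochondrial share of at most 5%, and the 300 of these with the highest summed share were selected. The other 9067 eligible cells are called the rest. Because the selection used measured values, and every gene of the selected cells counts as used, all values below describe the cells and none is a test of them.

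The series measured single-cell RNA in 5 libraries of C57BL/6 submandibular gland cells, with 1 library per group. Of the mSGO libraries, 3 were collected on day 7 (untreated, or irradiated on day 5 with 7 Gy of photons or protons) and 1, untreated, on day 11, and the fifth library held cells of fresh gland tissue. The glands came from female mice of 8 to 12 weeks. The mSGOs are given as derived from 4 animals and were grown in Matrigel with Wnt3a- and R-spondin1-conditioned media, EGF, FGF2, insulin, dexamethasone and Y27632, an inhibitor of the ROCK kinases that drive actomyosin contraction, and the 11-day mSGOs came from other animals and another run. The libraries held 72788 barcodes in all, with 16908611 to 40166701 UMIs per library. The eligible cells had a median of 2641 to 5452 UMIs, and 1169 to 9367 cells per library were eligible. Of the 300 selected barcodes, 4 sequences also occurred in another library, 2 of them among its eligible cells.

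Myoepithelial cells are basal epithelial cells that wrap around secretory units and ducts of the salivary gland. They carry basal keratins such as Krt14 and Krt5 together with a smooth muscle contractile apparatus, in which smooth muscle actin (Acta2), smooth muscle myosin heavy chain (Myh11), myosin light chain kinase (Mylk) and calponin (Cnn1) let them squeeze saliva towards the mouth. Csrp1, a LIM-domain protein of the actin cytoskeleton, and Sparc, a secreted glycoprotein that binds collagen, are found in myoepithelial cells but also in many other cell types.

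The contractile genes of the score were almost absent from the selected cells, and Csrp1 and Sparc made up nearly the whole of it. Csrp1 was detected in 243 of the 300 cells and Sparc in 241, with 646 and 639 UMIs, which were 47.6% and 47.1% of all UMIs counted towards the score. Acta2 was detected in 7 cells (63 UMIs), Mylk in 4 (5 UMIs), Myh11 in 2 (3 UMIs) and Cnn1 in 1 (1 UMI). None of these 4 genes was detected in 291 of the 300 cells (97.0%), and 3 cells had 2 or more of them. Oxtr, the oxytocin receptor of myoepithelial cells, had 0 UMIs in the eligible cells. Actg2, smooth muscle gamma actin, had 8 UMIs and Tagln, transgelin, had 14 in all 9367 eligible cells. The defining markers of the label were therefore at or near 0, so the cells are called Csrp1- and Sparc-high cells, or the selected cells, below. The first name covers cells with either gene alone as well as cells with both.

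Small numbers of molecules decided membership. Csrp1 and Sparc together had 3 or fewer UMIs in 102 of the 300 cells, 4 in 100 cells and 5 or more in 98 cells. Both genes were detected in 184 cells, Csrp1 without Sparc in 59 and Sparc without Csrp1 in 57. Only 1 of the 6 genes was detected in 116 cells and 2 of them in 175, whereas 1 cell had all 6. The score ranged from 1.23% of a cell's UMIs to 0.114%, with a median of 0.139%, against a median of 0.0156% in the rest. The last 3 cells inside had 3 of 2629, 6 of 5270 and 3 of 2639 UMIs on the 6 genes, and the first 3 outside had 6 of 5284, 6 of 5292 and 5 of 4411. The shares of these 6 cells thus differed by less than 1 UMI is worth. The selected cells were shallower than the rest, with a median of 2610 UMIs and 1431 genes against 3233 UMIs and 1672 genes, and the part of depth in the differences below was not tested apart from the depth-matched values given beside them.

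**Figure D1:**
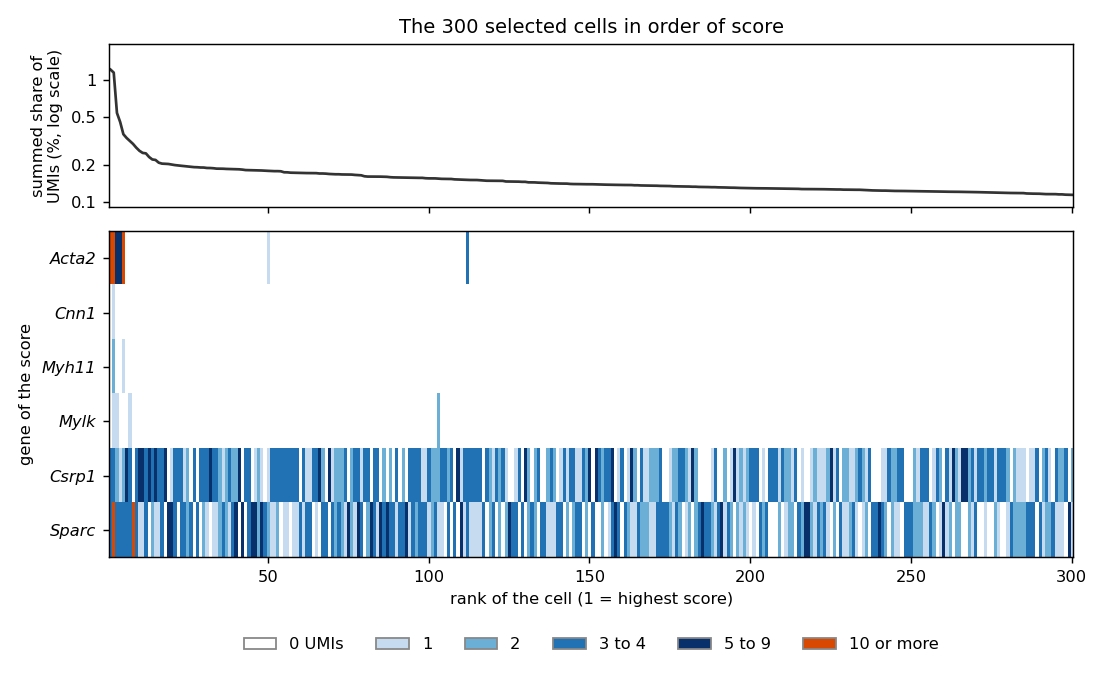
The upper plot gives the score of the 300 selected cells (summed share of UMIs, in percent on a log scale) against their rank, and the lower plot gives the UMIs of each score gene in the same cells, from 0 (white) to 10 or more (orange). Csrp1 and Sparc were detected across the whole ranking, whereas Acta2 was confined to 7 cells, 5 of them at ranks 1 to 5.

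Csrp1 and Sparc were also detected widely outside the selected cells. In the rest, Csrp1 was detected in 35.3% of cells and Sparc in 24.4%, and 764 cells of the rest had both. After every cell was thinned to 2000 UMIs, Csrp1 was detected in 74.7% of the selected cells (95% exact binomial interval 69.4 to 79.5%), in 22.8% of the rest and in 14.7% of the 300 cells with the highest luminal duct score. The corresponding shares for Sparc were 72.3% (66.9 to 77.3%), 16.3% and 2.33%. The luminal-scoring cells had a median of 4369 UMIs before thinning. Over all 9367 eligible cells at this equal depth, Sparc was detected in 19.9% of the 2287 cells with Csrp1 (18.3 to 21.6%) and in 17.5% of the 7080 cells without it (16.6 to 18.4%). No test was made of this difference. Intervals here and below cover counting error only, since the cells of 1 library are not replicates.

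A subset of 6 cells carried most of the Acta2 RNA. These Acta2-rich cells, with 3 or more Acta2 UMIs, were picked after their values were seen. They held 21, 14, 7, 5, 11 and 4 Acta2 UMIs at ranks 1, 2, 3, 4, 5 and 112, which was 62 of the 72 Acta2 UMIs of the eligible cells (86.1%) in 0.0623% of all UMIs. No other eligible cell had more than 2, and 9 others had any. In CPM (UMIs of a gene scaled to a library total of 1e+06), Acta2 stood at 72.8 (95% exact Poisson interval 55.9 to 93.1) in the selected cells as a whole and at 0.269 (0.123 to 0.510) in the rest. The cell at rank 2 was the one with all 6 genes, with 14 Acta2, 2 Myh11, 1 Mylk, 1 Cnn1, 3 Csrp1 and 13 Sparc UMIs among its 2928.

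Some further smooth muscle genes were concentrated in the same 6 cells, and others were not. Myl9, the smooth muscle myosin regulatory light chain, had 6 of its 8 UMIs there, in 4 of the 6 cells, and Tagln had 4 of its 14, in 2 cells. Lmod1, leiomodin, which nucleates actin filaments in smooth muscle, had 4 of its 34 UMIs there, in 4 cells. Tpm2, a muscle tropomyosin, was detected in all 6 cells with 26 UMIs, Palld, an actin crosslinker, in all 6 with 18 and Cald1, the actin-binding protein caldesmon, in 5 with 36. Of the Cald1 UMIs, 17 lay in 1 cell, and 42.0% and 37.7% of the rest had Tpm2 and Cald1. The 14 smooth muscle genes outside the score had 82 UMIs in the 6 cells, or 3826 CPM (3043 to 4749), against 426 CPM (420 to 434) in the rest. Actg2, Des, Kcnmb1 and Ldb3 had 0 UMIs in the 6 cells. Smtn and Ppp1r12b had 1 each, or 46.7 CPM, against 33.5 and 46.2 CPM in the rest. The 6 cells also held UMIs of epithelial genes, most of them at lower levels than in the rest. Krt14 had 18 UMIs (840 CPM against 1645 CPM), Krt5 9 (420 and 1022 CPM), Krt15 3, all in 1 cell (140 and 822 CPM), and Epcam 16 (747 and 1291 CPM), whereas Krt17 had 45 (2100 and 2025 CPM) and Trp63 9 (420 and 167 CPM). In the rank order given above, Krt14 had 1, 0, 4, 1, 3 and 9 UMIs and Krt5 0, 1, 1, 0, 3 and 4. Epcam had 2, 2, 0, 1, 5 and 6 and Krt17 1, 7, 5, 3, 14 and 15. The last 2 cells in that order were the deepest, with 5001 and 6614 UMIs. The luminal duct genes summed to 3173 CPM (2464 to 4022) against 10253 CPM. The part of free RNA in these UMIs was not tested. The 14 basal and myoepithelial epithelial genes summed to 4712 CPM (3838 to 5726) against 6048 CPM (6022 to 6074) in the rest. Col1a1, Col3a1, Pdgfrb, Rgs5, Pecam1, Cdh5 and Ptprc, markers of fibroblasts, mural cells, endothelium and blood cells, had 0 UMIs in the 6 cells, where 3 UMIs would be 140 CPM, but all of these except Pecam1 (16 UMIs) had 0 or 1 UMI in all eligible cells. The 14 fibroblast genes together had 4 UMIs in 4 of the 6 cells (3 of Fbln1 and 1 of Col5a2), or 187 CPM (50.9 to 478) against 48.2 CPM in the rest, and the pericyte, endothelial and immune lists had 0 UMIs. The 6 cells were also rich in Apoe, a lipid carrier (62 UMIs in 5 cells), Igfbp5 (12 UMIs in 4 cells, of 46 in the eligible cells), Chil1 (10 in 3 cells, of 28) and the type IV collagen gene Col4a1 (14, in all 6). Ly6a, Sprr1a and Ecm1, which 98.1%, 83.6% and 67.7% of the rest had, were low in them, with 5, 4 and 1 UMIs, and the 14 UMIs of Ly6d lay in 1 cell.

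Few genes separated the 300 selected cells from the rest by a wide margin. With the 6 score genes left out, 3537 genes had at least 50 CPM and a UMI in at least 10% of the selected cells, and of these 8 (0.226%) were at least 2-fold higher than in the rest. Of 3591 genes that passed the same limits in the rest, 10 (0.278%) were at least 2-fold lower. The median log2 ratio of all 13931 genes with 20 or more UMIs was −0.04. These counts describe 1 library, and the selection itself favoured genes that vary with Csrp1 or Sparc.

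Among the genes past these limits in the selected cells, the score genes left out, Wfdc18, Apoe, Timp3, Sulf1 and Sostdc1 had the highest ratios. Wfdc18, a small secreted protein of the whey acidic protein family, stood at 1043 CPM (976 to 1114) in the selected cells and 273 CPM (267 to 278) in the rest, a log2 ratio of 1.93. It was detected in only 67 of the 300 cells, and 5 cells held 40.6% of its UMIs. Apoe stood at 162 and 47.9 CPM (log2 ratio 1.74), but without the 6 Acta2-rich cells its ratio was 0.93. Timp3, an inhibitor of matrix metalloproteinases, stood at 133 CPM (110 to 160) and 41.3 CPM (39.2 to 43.5), with a log2 ratio of 1.66, and 1.28 without those cells. Sulf1, which removes sulfate groups from heparan sulfate outside the cell, had a log2 ratio of 1.41 (57.8 and 21.2 CPM). Sostdc1, a secreted antagonist of BMP and Wnt signalling, stood at 330 CPM (293 to 371) and 127 CPM (124 to 131), a log2 ratio of 1.37, and was detected in 82 of the 300 cells.

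The other genes named as higher had smaller ratios. Ncam1, a cell adhesion molecule, had a log2 ratio of 1.07 (71.6 and 33.5 CPM), Grip1, a PDZ-domain scaffold, 1.05 and Col12a1, a fibril-associated collagen, 1.02. Cald1 stood at 318 CPM (281 to 358) and 170 CPM (166 to 175), a log2 ratio of 0.90 and 0.73 without the 6 cells. The remaining genes named by the rule lay between 0.82 and 0.89 on the log2 scale. They were Mia, a small secreted protein, Gas1, a surface protein of Hedgehog signalling, Fbln1, an extracellular matrix fibulin, Rflna, a filamin-binding protein, Tgfbr3, a TGF-beta co-receptor, and Cxcl1, a neutrophil-attracting chemokine. Cxcl1 differed from the others in that 5 cells held 62.6% of its 265 UMIs. Its share of cells with a UMI was lower in the selected cells (19.3%) than in the rest (23.8%). At equal depth these shares were nearly the same, at 17% and 16.75%. Cxcl1 stood at −0.92 when Csrp1 was left out of the score, as Mia stood at −0.36 when Sparc was left out.

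Ptprd, a receptor-type tyrosine phosphatase, had the lowest ratio among the genes past the same limits in the rest. It stood at 79.7 CPM (62.0 to 101) in the selected cells and 308 CPM (303 to 314) in the rest, a log2 ratio of −1.94, and was detected in 10.3% and 29.5% of cells at equal depth. Besides a predicted gene that the naming rule left out, the other genes at least 2-fold lower were Cyp1b1 (log2 ratio −1.32) and Srd5a1 (−1.24), enzymes of steroid and xenobiotic metabolism, Lgi2 (−1.31), the potassium channel gene Kcnq1 (−1.22), the keratin gene Krt6a (−1.14), the mitochondrial gene Chchd10 (−1.11), the epidermal gene Dmkn (−1.09) and the mTOR inhibitor Deptor (−1.03). Ppargc1a, a coactivator of mitochondrial genes, followed at −0.98. When each selected cell was set against 10 cells of like UMI number, Ptprd stayed at −1.72 while Krt6a moved to 0.09 and Dmkn to −0.42, and the number of genes at least 2-fold lower went from 10 to 4. Under that matching Wfdc18 stood at 2.17, Timp3 at 1.66 and Sostdc1 at 1.51.

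**Figure D2:**
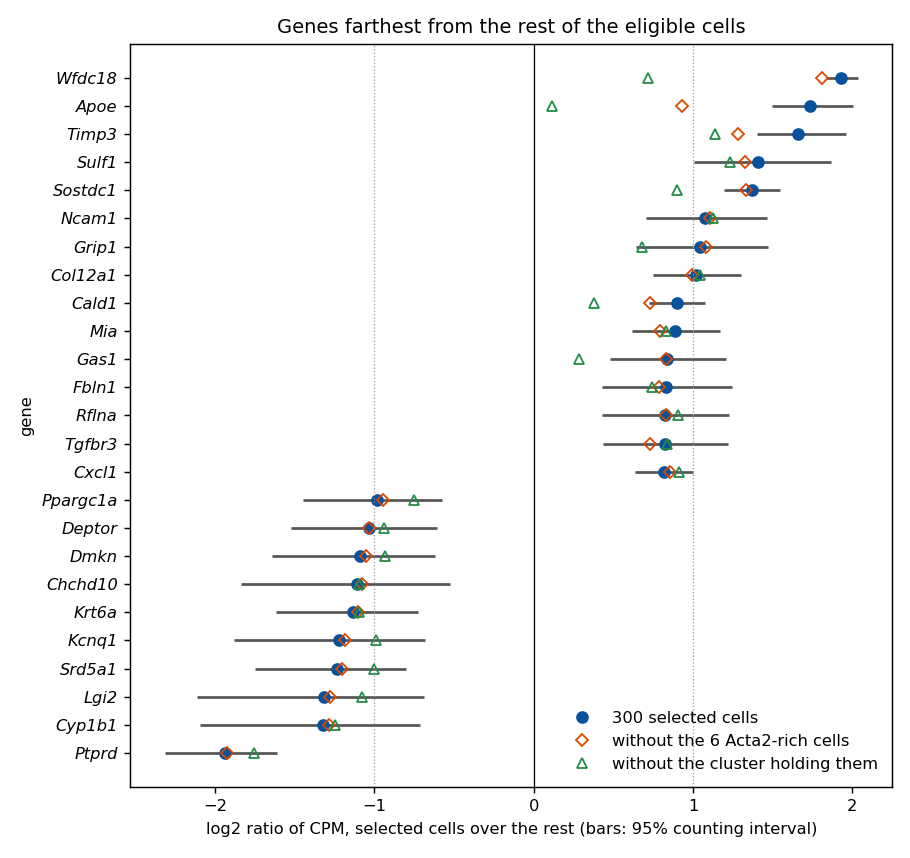
Points give the log2 ratio of CPM (selected cells over the rest) of the 15 highest and 10 lowest genes named by the rule, with 95% counting intervals, diamonds give it without the 6 Acta2-rich cells and triangles without the 281 cells of the cluster that held them. Apoe went from 1.74 to 0.93 and 0.11 and Wfdc18 from 1.93 to 1.81 and 0.72, whereas Ptprd stayed between −1.94 and −1.76.

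Among the other smooth muscle genes, 7 of 14 had 20 or more UMIs, 1 was at least 2-fold higher and none lower, and their median log2 ratio was 0.62. Over all genes measured at that minimum, 2.27% were at least 2-fold higher and 7.11% at least 2-fold lower. The 1 gene past 2-fold was Lmod1, with 5 UMIs, 4 of them in the Acta2-rich cells. Smtn, smoothelin, had a log2 ratio of 0.74, Ppp1r12b, a myosin phosphatase subunit, 0.62 and Tpm2 0.57. Summed, the list stood at 728 CPM (672 to 787) against 426 CPM (420 to 434), and its log2 ratio of 0.77 was 0.61 without the 6 cells and 0.41 without their cluster. The 22 genes of the general actin cytoskeleton lay between −0.14 and 0.61, none past 2-fold, with a median of 0.21. Actg1 (0.40), Myh9 (0.37), Pdlim7 (0.53) and Cnn2 (0.61), which encode cytoplasmic actin, non-muscle myosin, a LIM protein and a non-muscle calponin, were among them.

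Basal keratins did not set the selected cells apart. Krt14 stood at 1742 CPM (1656 to 1833) in the selected cells and 1645 CPM in the rest, a log2 ratio of 0.08, and Krt5 had a log2 ratio of −0.03. Krt17 (0.24), Cdh3, the gene of P-cadherin (0.21), Lgals7 (0.34) and Trp63, the master regulator of basal epithelium (0.63), were higher by less than 2-fold, Snai2 stood at 0.01, and Krt15 was lower at −0.65. Of this list, 11 of 14 genes were measured, and Igfbp2 alone was past 2-fold, with 26 UMIs in 17 cells (log2 ratio 2.66). Sox10, a transcription factor of myoepithelial cells, had 4 of its 6 UMIs in the selected cells, 2 of them in the Acta2-rich cells, and stood at 4.62 CPM (1.26 to 11.8) against 0.0597 CPM (0.00723 to 0.216). Mme, a surface peptidase, had 1 UMI in the selected cells, in an Acta2-rich cell, and 2 in the rest. Trp63 and Lgals7, which the study used with Csrp1 and Sparc to mark its myoepithelial-like cells, thus stood at 260 and 129 CPM against 167 and 102 CPM.

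Among all 13931 measured genes, 6277 had log2 ratios above 0, and the shares in the matrix and adhesion lists are read against that count. All 14 measured genes of the integrin and hemidesmosome list had log2 ratios above 0, between 0.10 and 0.91, with a median of 0.25 and none past 2-fold. Itgb8 stood at 0.74, Itgb6 at 0.59 and Itgb1 at 0.23. In the matricellular list, 18 of 20 measured genes were above 0 with a median of 0.40, and 4 were at least 2-fold higher (2.27% of all genes), Timp3 and the low-count genes Smoc2 (9 UMIs), Mmp2 (5) and Postn (2). Tnc, tenascin C, had a log2 ratio of 0.75 and Ccn1, a matricellular target of YAP, 0.78, whereas Fn1, fibronectin, stood at −1.02. The YAP and TEAD target list, which holds Ccn1 too, had 11 of 12 measured genes above 0 and a median of 0.36. Basement membrane genes had a median of 0.17, with 12 of 18 above 0.

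Luminal duct genes were lower in sum, and acinar-type genes were mixed. All 11 luminal duct genes had log2 ratios below 0, with a median of −0.63, although the interval of Clic1 (−0.13, −0.31 to 0.03) included 0. Of the 11, Krt19 (−1.13) and Cldn3 (−1.23) were at least 2-fold lower, as were 7.11% of all measured genes. Krt18 stood at 611 CPM (560 to 666) and 945 CPM in the rest, and Wfdc2, the most abundant gene of the list, at 3836 CPM (3707 to 3969) and 5914 CPM. Summed, the list was at −0.53, and at −0.39 against the rest matched on UMIs. In the pro-acinar and acinar list 7 of 9 measured genes were below 0, as were 7654 of the 13931 genes with 20 or more UMIs. Of the 9, Ptprd and Dcpp1 (0 UMIs in the selected cells) were past 2-fold lower. Dcpp1 was detected in only 0.0221% of the rest, so 0 UMIs in the selected cells cannot show a lower level. Aqp5 and Pip (2.26 from 6 UMIs) were past 2-fold higher, and Chrm3 (−0.51), Alcam (−0.51) and Clcn3 (−0.63) were within 2-fold. Aqp5, the acinar water channel, stood at 45.1 CPM against 11.8 CPM (log2 ratio 1.85), with 71.8% of its 39 UMIs in 5 cells. Striated and granular duct genes summed to 27.7 CPM (17.8 to 41.3) and 58.7 CPM.

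Cell-cycle RNA was lower in the selected cells, but not under every setting. The 18 genes of G2 and mitosis summed to 19.6 CPM (11.4 to 31.5) in the selected cells and 136 CPM (132 to 140) in the rest, but the summed log2 ratio (−2.79, or −2.73 with the pseudocount) went to −0.99 against the rest matched on UMIs and to 0.56 when cells were thinned before ranking, and the part of depth in it was not tested further. S-phase genes had a median of −0.30. Markers of other cell types were scarce. Of the fibroblast list 4 of 14 genes were measured, and Fbln1 gave 54 of its 80 UMIs. Its sum was nevertheless higher in the selected cells, at 92.4 CPM (73.3 to 115) against 48.2 CPM, a log2 ratio of 0.94 (0.60 to 1.26), and 1 of the 4, Col5a2, was past 2-fold (1.88 from 7 UMIs). Pericyte, endothelial and immune genes summed to 31.2 CPM (20.6 to 45.4), 16.2 CPM (8.84 to 27.1) and 2.31 CPM (0.280 to 8.35) in the selected cells, against 39.2, 10.5 and 3.91 CPM in the rest. The endothelial sum gave a log2 ratio of 0.63 (−0.26 to 1.39), with Flt1 past 2-fold at 1.03 from 4 UMIs. Pdgfrb, Cdh5 and Ptprc had 0 UMIs in all eligible cells. The part of such cells in the differences was not tested.

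**Figure D3:**
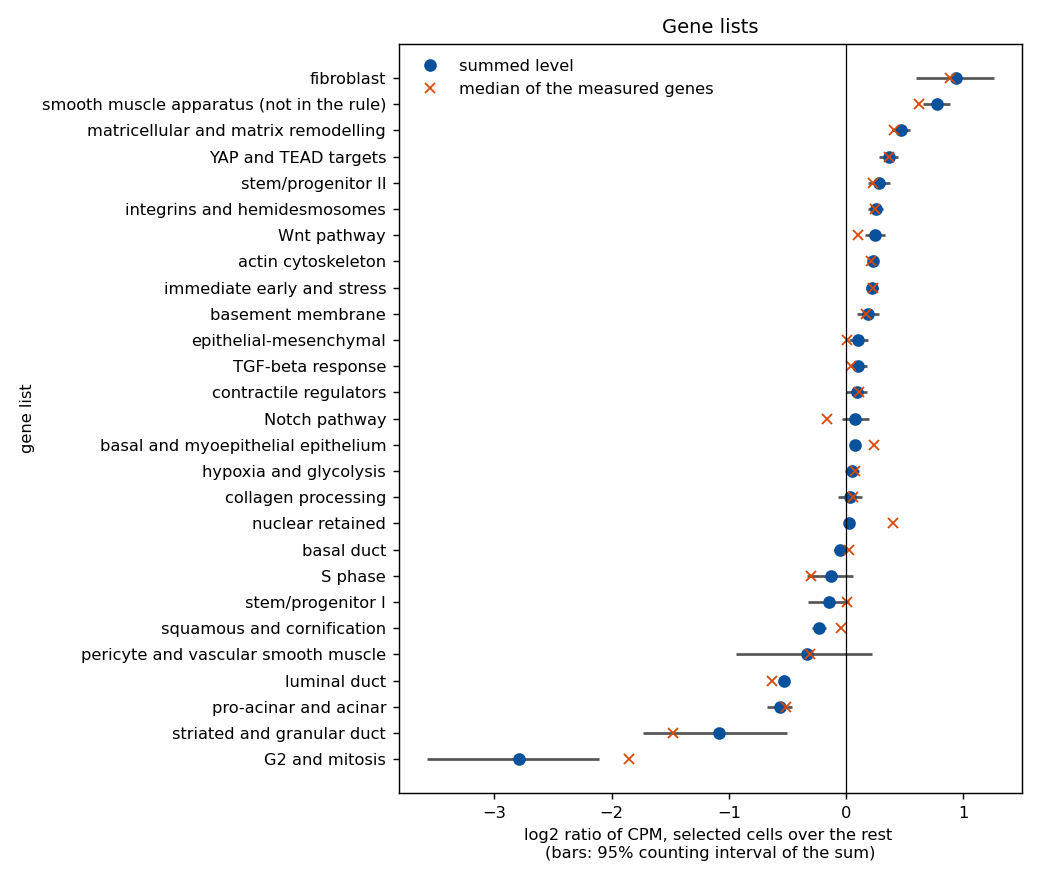
Points give the log2 ratio of the summed CPM of each gene list (selected cells over the rest) with 95% counting intervals, and crosses the median log2 ratio of its genes with 20 or more UMIs. The smooth muscle list lay at 0.77 and the luminal duct list at −0.53, and lists of few UMIs such as the 18 genes of G2 and mitosis had wide intervals.

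Several of the named genes also differed between the lower bands of the ranking. Wfdc18 stood at 1043 CPM in ranks 1 to 300, 632 CPM in ranks 301 to 600, 425 CPM in ranks 601 to 1200 and 413 CPM in ranks 1201 to 2400. It was at 259 CPM in the lower ranks with a score above 0 and at 200 CPM (193 to 208) in the 4372 cells without a UMI of any score gene. Sostdc1 went from 330 to 249 CPM in the second band and to 95.8 CPM in the cells without a score. Ptprd ran the other way, with 79.7 CPM in ranks 1 to 300, 124 CPM in ranks 301 to 600, 170 CPM in ranks 601 to 1200 and 394 CPM (384 to 404) at score 0. Krt18 likewise went from 611 to 1014 CPM and Wfdc2 from 3836 to 6432 CPM. Krt14 stayed between 1544 and 1986 CPM over all bands. Timp3 went from 133 to 69.4 CPM across rank 300 and stayed between 62.3 and 66.8 CPM down to rank 2400, and Apoe went from 162 to 87.2 CPM and then stood at 88.1 CPM in ranks 601 to 1200. Krt6a had no steady trend, with 50.8 CPM in ranks 1 to 300, 22.1 CPM in ranks 301 to 600 and 171 CPM in ranks 2401 to 4995.

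**Figure D4:**
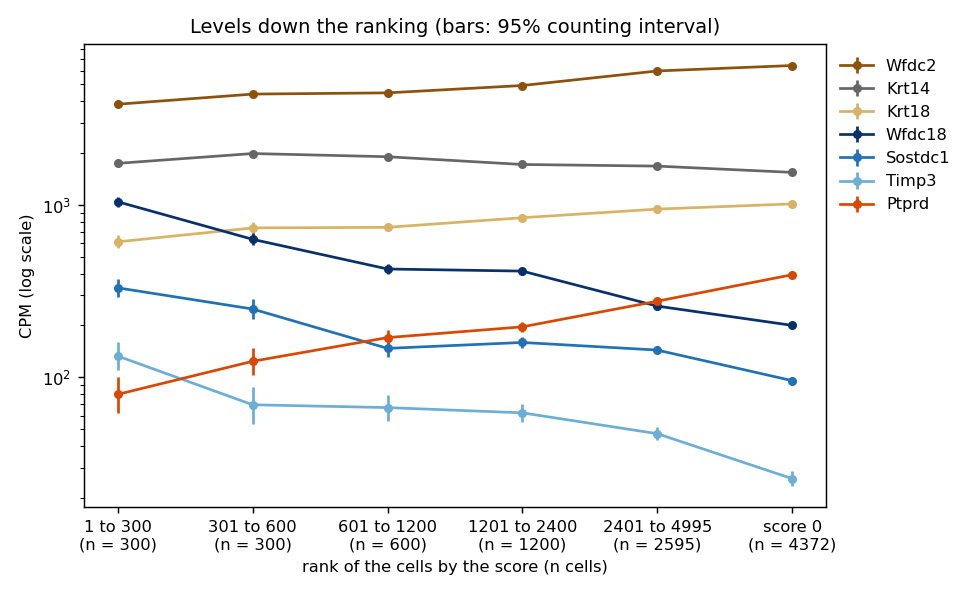
Each line gives the CPM of 1 gene (log scale) in 6 bands of the ranking, from the 300 selected cells on the left to the 4372 cells with a score of 0 on the right, with 95% counting intervals. Wfdc18, Sostdc1 and Timp3 were highest and Ptprd lowest in the selected cells, and Krt14 stayed between 1544 and 1986 CPM.

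Cells led by Csrp1 and cells led by Sparc, split after the values were seen, differed in a few genes. Leaving out the Acta2-rich cells, Csrp1 had more UMIs than Sparc in 140 cells and Sparc more than Csrp1 in 128, while 26 had equal numbers, and the first 2 groups had medians of 2598 and 2594 UMIs. Of 1270 genes with 100 or more UMIs over both, 6 (0.472%) were at least 2-fold higher in the Sparc-led cells and 6 (0.472%) at least 2-fold higher in the Csrp1-led cells. On the Sparc side stood Selenom (271 and 101 CPM), an endoplasmic reticulum selenoprotein, Id1 (273 and 109 CPM) and Id3 (332 and 136 CPM), inhibitors of DNA binding that respond to BMP, and Col12a1 (185 and 83.3 CPM). Id1 was detected in 56 of the 128 Sparc-led cells and 28 of the 140 Csrp1-led cells, and Id3 in 55 and 31. The other 2 were Adgrl3 and Auts2, with log2 ratios of 1.07 and 1.04. Mia, with 94 UMIs over both and therefore outside that count, stood at 185 and 63.1 CPM. Wfdc18 stood at 1184 and 676 CPM, with 69.2% and 63.1% of its UMIs in 5 cells of each group.

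The Csrp1 side was led by chemokines that came from few cells. Cxcl5 stood at 283 CPM in Csrp1-led and 8.04 CPM in Sparc-led cells, Cxcl2 at 434 and 45.5 CPM and Cxcl1 at 550 and 96.4 CPM. However, 5 of the 140 cells held 94.6%, 91.9% and 75.7% of the Csrp1-led UMIs of these 3 genes, and Cxcl2 was detected in 13 of the 140. Anxa1, annexin A1, was detected in 130 of 140 and 120 of 128 cells, at 2804 CPM (2642 to 2974) and 1192 CPM (1084 to 1308), against 2949 CPM in the rest. Here too 5 of the Csrp1-led cells held 43.7% of the group's 1111 UMIs, compared with 15.7% of 445 UMIs in 5 of the Sparc-led cells. Alcam (283 and 123 CPM) and Epha7 (202 and 96.4 CPM), an adhesion molecule and an ephrin receptor, completed the 6. Some genes stood apart from the rest on both sides, namely Sostdc1 (283 and 338 CPM against 127 CPM in the rest), Timp3 (95.9 and 105 against 41.3 CPM) and Ptprd (80.8 and 80.4 against 308 CPM). Krt14 was higher in Sparc-led cells (1937 CPM, 1798 to 2083) than in Csrp1-led cells (1552 CPM, 1432 to 1680), and Krt17 lower (2229 and 2579 CPM). Csrp1 and Sparc themselves split these groups and are not compared.

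**Figure D5:**
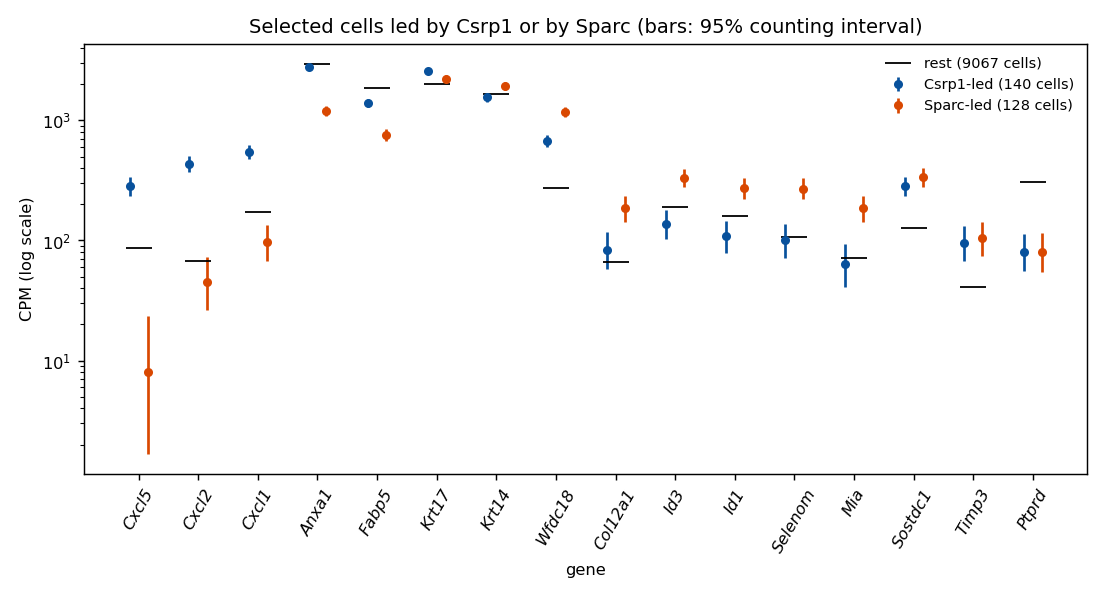
Points give the CPM (log scale) of 16 genes in the 140 Csrp1-led and the 128 Sparc-led cells with 95% counting intervals, and black bars the CPM in the 9067 cells of the rest. Cxcl5, Cxcl2, Cxcl1 and Anxa1 were higher in Csrp1-led cells, Id1, Id3, Selenom, Mia and Col12a1 in Sparc-led cells, and Sostdc1, Timp3 and Ptprd lay close together in both and away from the rest.

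Clustering did not gather the selected cells. Over 10 clusters of the eligible cells they fell into 9, and the cluster that held most of them held 92 (30.7%), where they were 4.75% of its 1937 cells. Their share of the library is 3.20%. The highest share was 17.4%, with 49 selected cells in a cluster of 281 cells, and the lowest was 0 of 116 cells in a cluster led by Cenpf, Ube2c and Hmmr, genes of mitosis. When the 6 score genes were left out of the clustering, the highest share was 17.1%. Clusters are left unnamed.

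All 6 Acta2-rich cells lay in the cluster of 281 cells, whose leading genes were Igfbp2, Igfbp6, Apoe, Adamts9 and Wfdc18. Outside the Acta2-rich cells, however, contractile RNA was scarce in it, with 1 Acta2 UMI in the other 43 selected cells and 0 in its 232 cells that were not selected. In the whole cluster, Acta2-rich cells included, 10 of 281 cells had a UMI of Acta2, Cnn1, Myh11 or Mylk, against 97 of all 9367 eligible cells. In the 232 cells that were not selected, Csrp1 stood at 340 CPM (300 to 383) and Sparc at 94.3 CPM (74.2 to 118), against 129 and 92.2 CPM in the unselected cells of the other clusters, and both genes had been used in the selection. Several of the differences named above were much smaller outside this cluster. Igfbp2 had 0 UMIs in the 251 selected cells outside it, Apoe stood at 45.7 CPM (31.4 to 64.1) in them against 42.1 CPM in their counterparts, and Aqp5 at 4.15 CPM (0.856 to 12.1) against 11.1 CPM. Wfdc18 stood at 4244 CPM (3885 to 4627) in the 43 cells and at 410 CPM (364 to 459) in the 251, against 248 CPM. Timp3 (85.8 and 38.4 CPM), Sostdc1 (219 and 117 CPM) and Ptprd (92.7 and 316 CPM) kept their direction in the 251 cells.

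Other marker scores picked few of the same cells. The 300 highest cells of the smooth muscle score shared 31 cells with the selected 300 (10.3% of each), those of the actin cytoskeleton score 28 and of the fibroblast score 27. The basal duct score shared 8, the basal and myoepithelial epithelial score 9, the stem/progenitor I score 11, the stem/progenitor II score 16 and the luminal duct score 0. At the share of the library, 9.61 of 300 cells would be shared. Doublets were scored with Scrublet, whose automatic threshold marked 0 of the 9367 cells and had thus not worked, so no doublet was removed. Median scores were 0.121 in the selected cells and 0.146 in the rest, and the highest score of an Acta2-rich cell was 0.0962.

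Contractile RNA was scarce in the other mSGO libraries too. Over the eligible cells, Acta2 stood at 0.326 CPM (4 UMIs) in untreated 7-day mSGOs, at 0 UMIs after photons and at 0.440 CPM (6 UMIs) after protons, against 2.09 CPM (1.64 to 2.64) in 11-day mSGOs and 3.48 CPM (2.13 to 5.38) in fresh tissue. The 6 UMIs of the proton library lay in 1 cell, which also held its 3 Cnn1 UMIs. Myh11 had 0 UMIs in all 3 of the 7-day libraries, with upper Poisson bounds of 0.301, 0.275 and 0.270 CPM. Csrp1 stood at 132, 70.2 and 68.7 CPM in control, photon and proton mSGOs and at 150 CPM in 11-day mSGOs, and Sparc at 65.8, 70.7, 74.1 and 109 CPM. The score of the 300th selected cell was reached by 8 of 1947, 9 of 2965 and 11 of 2892 cells in control, photon and proton mSGOs (0.411%, 0.304% and 0.380%) and by 27 of 1169 cells in tissue (2.31%). The 11-day library came from other animals and another run. Its file header names version 7.0.0 and its gene list holds 32285 genes, against 3.0.1 and 31053 genes in the other libraries. Depth differed between libraries too, so day and batch cannot be told apart.

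Taking the same share of each library (3.20% of its eligible cells) gave 62, 95 and 93 cells in the 7-day libraries, chosen after the 11-day values were known. Of the 15 genes named as higher, 11, 12 and 11 had 20 or more UMIs in these, and 9, 8 and 8 had log2 ratios above 0, where 65.6%, 62.5% and 61.7% of all genes with as many UMIs were above 0 outside the score genes. Sostdc1 was higher in all 3, with log2 ratios of 1.48, 1.07 and 1.72, as were Timp3 (2.32, 1.85 and 1.79) and Cald1 (1.35, 0.79 and 1.80). Of the 10 genes named as lower, 8 had 20 or more UMIs in each of the 3 libraries, and 5, 5 and 7 of these had log2 ratios below 0, against 34.4%, 37.5% and 38.3% of all such genes. In untreated 7-day mSGOs, Deptor (1.60 from 3 UMIs), Srd5a1 (0.86 from 13) and Cyp1b1 (0.30 from 6) were above 0. Krt6a was lower in all 3 (−1.20, −0.87 and −1.12), and so was Dmkn (−0.89, −0.95 and −0.94). Wfdc18 had only 1, 1 and 0 UMIs in these cells, and Cxcl1 was lower (−0.41, −0.58 and −0.77). Krt18 differed from the 11-day cells, at 0.08, 0.13 and 0.16. In tissue, the 37 cells chosen this way carried endothelial RNA, with Pecam1 at 1911 CPM and Flt1 at 1953 CPM against 24.7 and 26.3 CPM in the other eligible cells, and Krt14, Krt5 and Trp63 had 0 UMIs in them.

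In the GENCODE vM39 annotation of GRCm39, matched by Ensembl gene ID, the genes of the score lie apart in the genome. Acta2 (ENSMUSG00000035783) lies on chromosome 19 from 34217737 to 34232990, Cnn1 (ENSMUSG00000001349) on chromosome 9 from 22010512 to 22020926, Myh11 (ENSMUSG00000018830) on chromosome 16 from 14012399 to 14109236 and Mylk (ENSMUSG00000022836) on chromosome 16 from 34565580 to 34822790. Csrp1 (ENSMUSG00000026421) lies on chromosome 1 from 135647492 to 135679976 and Sparc (ENSMUSG00000018593) on chromosome 11 from 55285317 to 55314067. Wfdc18 (ENSMUSG00000000983) lies on chromosome 11 from 83599841 to 83602174 and Ptprd (ENSMUSG00000028399) on chromosome 4 from 75859475 to 78130198. These coordinates place the genes and do not give the build used for counting.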

How the data were processed

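Single cells sorted for exclusion of propidium iodide were captured with 10x Genomics 3′ chemistry. The authors deposited, per library, a matrix of whole-number UMI counts per gene and barcode, already filtered (no barcode under 500 UMIs). The submitters' processing notes name Cell Ranger 5 and mm10, the study's methods name GRCm39, and the file headers name version 3.0.1 (7-day and tissue) and 7.0.0 (11-day). Groups followed the labels.

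In the 11-day library, cells were ranked on the 6-gene share of UMIs, and the score's members and all gene lists were chosen with earlier results of these data known. UMI counts were summed over cells and scaled to a total of 1e+06 (CPM), and log2 ratios used a pseudocount of 1 CPM. Each group being a single library, no test was made. Intervals (95%) are exact Poisson for CPM, exact binomial (Clopper-Pearson) for shares and conditional exact binomial for ratios. Precision is set by 865458 UMIs in the selected cells and 33514360 in the rest, so 3 UMIs are 3.47 and 0.0895 CPM. Named genes were the 6 score genes, the smooth muscle and basal lists, the 15 highest and 10 lowest log2 ratios past 50 CPM and 10% of cells (without mitochondrial, ribosomal protein, Gm and Rik genes), up to 3 highest and 3 lowest per other list, and the study's markers. Genes named outside it were chosen after their values were seen. Clusters used 2000 variable genes, 30 principal components, 15 neighbours and Leiden resolution 0.8 (scanpy 1.11.5, leidenalg 0.10.2, numpy 2.4.6, scipy 1.17.1). The ratio code was tested on simulated data. Alternatives covered the filters, the number of cells, the score, depth, scaling and clustering. The study's minimum of 2500 genes per cell was an alternative only.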

Additional observations from a re-analysis of the deposited data

How the results depend on the processing

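The number of genes at least 2-fold higher (8) was 5 at a minimum of 4000 UMIs, 4 at a minimum of 2500 genes, 20 with 150 cells, 5 with 600 cells, 5 after thinning to 2000 UMIs, 13 without Csrp1 in the score, 4 with z-scored log values, 5 with a pseudocount of 10 CPM and 5 at a minimum of 100 CPM. The number at least 2-fold lower (10) was 30 with 150 cells, 17 without Csrp1 in the score, 3 with z-scored values, 20 and 4 at minimums of 20 and 100 CPM and 4 against the rest matched on UMIs. Without Csrp1 and Sparc in the score, 97 cells had a UMI of the other 4 genes and the rest of the 300 were filled by file order. That setting gave 1 gene higher and 0 lower, and under it Grip1 stood at −0.51, Col12a1 at −0.15, Ptprd at 0.18, Chchd10 at 0.50 and Deptor at 0.012. Krt6a reached 0.093 with matched UMIs and Dmkn 0.054 at 2500 genes. The summed G2 and mitosis ratio (−2.73) was 1.01 at 4000 UMIs, 0.20 with 600 cells, 0.56 after thinning, 1.32 without Csrp1 and 0.18 without Csrp1 and Sparc. The cause of these changes was not tested.

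The share of selected cells with a UMI of Acta2, Cnn1, Myh11 or Mylk (3%) was 6% with 150 cells, 32.3% both without Csrp1 and Sparc and with z-scored values, 1.02% without the Acta2-rich cells and 0.398% without their cluster. Of the Acta2-rich cells, 2 remained eligible at 4000 UMIs, 0 at 2500 genes and, by construction, 0 when they or their cluster were left out. The largest share of selected cells in 1 cluster (30.7%) was 45.7% at resolution 0.4, where 5 clusters held any, and 18.3% at resolution 1.2.

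Over 21 alternatives, 398 of 525 values for the 25 named genes lay within the reported counting interval and 14 changed sign, mostly where Csrp1, Sparc or both were left out of the score. Of 210 values for 10 list sums, 138 lay within it and 10 changed sign. Besides the G2 list, these were the luminal duct (0.0039), pro-acinar (0.039), basal and myoepithelial (−0.10), actin (−0.0091) and YAP (−0.0063) sums without Csrp1 and Sparc. Both tallies include the minimums of 20 and 100 CPM. Those settings alter only which genes are counted, so their ratios were the same by construction. Of the 300 cells, 198 were selected again after thinning, 30 at 4000 UMIs and 1 at 2500 genes. Removing Scrublet calls changed nothing, since none was made. Removing the highest 7.2% of scores, leaving out the Acta2-rich cells or their cluster, and equal shares per library were chosen after seeing the data. No paired analysis was possible because each group has 1 library.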

Other observations

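Other signalling lists moved little in the Csrp1- and Sparc-high cells. Of all measured genes 45.1% had log2 ratios above 0, with 2.27% at least 2-fold higher and 7.11% at least 2-fold lower, and the counts of each list stand beside these shares. Immediate early and stress genes had 14 of 17 log2 ratios above 0 with a median of 0.23 and none past 2-fold, and Egr1 stood at 0.66, Junb at 0.46 and Nr4a1 at 0.79 from 9 UMIs. In the Notch list 5 of 12 measured genes were above 0, a share near that of all genes, with a median of −0.16 and a summed log2 ratio of 0.08, where Jag2, a ligand, stood at 0.57, the target Hes1 at −0.82 and the receptor Notch3 at −2.35 from 2 UMIs. In the Wnt list the median was 0.10, and besides Sostdc1 the secreted antagonist Sfrp1 was more than 2-fold higher at 1.79 from 10 UMIs, whereas Wnt7b, a ligand, stood at −1.19 from 5 UMIs. The stem cell receptor gene Lgr6 stood at 0.59 and Lgr5 had 1 UMI. Hypoxia and glycolysis genes had a median of 0.07 and TGF-beta response genes 0.04. In the squamous and cornification list 7 of 16 measured genes were above 0 with a median of −0.04, again near the share of all genes. Lor (1.23 from 6 UMIs) and Krt16 (1.15 from 20 UMIs in 4 cells) were more than 2-fold higher, and 4 were at least 2-fold lower. These were Krt6a (−1.14), Dmkn (−1.09), Krt6b (0 UMIs against 9.85 CPM in the rest) and Krt13 (−3.19, with 9.24 CPM from 8 UMIs against 92.3 CPM). Krt6b was detected in only 0.353% of the rest.

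Tnc was higher in the high-scoring cells of the 7-day libraries as well, with log2 ratios of 1.56, 2.24 and 2.12 in control, photon and proton mSGOs, from 13, 32 and 34 UMIs. Col4a2, which stood at 0.25 in the 11-day cells, was at 0.82, 1.87 and 1.71 there.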
